A study of Mus musculus with 8 samples.

Results

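The Cyp2d family of the mouse liver was examined through the 8 rows of the count table whose gene symbol is *Cyp2d9*, *Cyp2d10*, *Cyp2d11*, *Cyp2d12*, *Cyp2d13*, *Cyp2d22*, *Cyp2d26* or *Cyp2d40*, out of 16540 rows in all. No other row of the table has a symbol beginning with Cyp2d. Liver RNA was sequenced from 4 vehicle-treated and 4 ISOGK-treated male *Apoe*-/- mice, 1 library per mouse, and all 8 mice were fed a Western diet. ISOGK, or isoginkgetin, is a biflavonoid of *Ginkgo biloba* that the study tests as an inhibitor of ATP-citrate lyase. It was injected at 20 mg/kg per day for 8 weeks, and the vehicle group received the solvent DMSO without the compound. Loss of *Apoe*, which encodes a ligand for lipoprotein clearance, raises plasma cholesterol, so both groups were livers of a hyperlipidemic model. The study reports lower cholesterol and triglyceride in serum and liver with ISOGK than with vehicle. No mouse with intact *Apoe* or on chow was part of the comparison.

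Cytochrome P450 enzymes of the CYP2D subfamily sit in the membrane of the hepatocyte endoplasmic reticulum, bind haem, and oxidise drugs and endogenous compounds with electrons passed on by P450 oxidoreductase. Humans rely on CYP2D6, which clears many antidepressants, opioids and beta-blockers, whereas the mouse genome carries a cluster of closely related *Cyp2d* copies. *Cyp2d9* is known as a male-biased steroid 16-alpha-hydroxylase gene of mouse liver that depends on pulsatile growth hormone, and HNF4A, a nuclear receptor of hepatocytes, is a known activator of *CYP2D6* through a DR1 element close to its start site.

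Between 17457106 and 24461854 reads per mouse were counted on genes. *Apoe* itself had 3252 to 6489 counts per library, a count over the whole gene that cannot check the deletion. Hepatocyte markers summed to between 191329 and 206908 CPM, read counts scaled to the normalized size of the library, in the vehicle group and between 180485 and 239558 in the ISOGK group, and none of the 14 markers in the table passed the test. The library of vehicle mouse 4 stood apart by its skeletal muscle markers, with 1562 counts against at most 13 in every other library. Cholangiocyte markers summed to 28.0 to 35.4 CPM with vehicle and 29.0 to 71.2 CPM with ISOGK (1 of 6 tested higher, *Sox9*), and Kupffer cell and macrophage markers to 1395 to 1813 CPM and 1163 to 1466 CPM (1 of 10 tested lower, *Cd68*). Stellate cell and fibroblast (10 tested), endothelial (10) and lymphocyte (4) markers had no called member, and no marker of any list was at 0 in all libraries. Among all tested genes, 4.11% were called higher and 3.44% lower. The part of the listed cell types in the results was not tested.

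The 8 genes lie on chromosome 15 between positions 82370527 and 82794452 of GRCm38, a stretch of 424 kb, and RefSeq lists 7 of them as protein-coding and *Cyp2d13* as a transcribed pseudogene. The same annotation holds 8 protein-coding *Cyp2d* genes and 11 *Cyp2d* pseudogenes in total. The promoters of 5 members were found in the RefSeq table of GRCm38.p6. Windows of 100 bases around the DR1-like element are shown because they hold the same pair of elements at nearly the same spacing. In the windows below, capitals mark a DR1-like element, 2 similar hexamers with 1 base between them, and the nearest TATAA downstream of it. The window of *Cyp2d40* ends 38 bases upstream of the annotated start site (-38), while the other windows cross the start site, and that of *Cyp2d11* holds a further TATAA at -16 to -12, left in lower case. The windows are chr15:82452303-82452402 on the plus strand for *Cyp2d9*, and on the minus strand chr15:82407172-82407271 for *Cyp2d10*, chr15:82394012-82394111 for *Cyp2d11*, chr15:82764160-82764259 for *Cyp2d40* and chr15:82794228-82794327 for *Cyp2d26*, each written 5′ to 3′ along the gene.
Cyp2d9: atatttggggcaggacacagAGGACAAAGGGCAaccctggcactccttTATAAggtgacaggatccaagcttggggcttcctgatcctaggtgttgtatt
Cyp2d10: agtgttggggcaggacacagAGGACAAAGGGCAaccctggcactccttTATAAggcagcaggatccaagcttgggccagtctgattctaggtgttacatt
Cyp2d11: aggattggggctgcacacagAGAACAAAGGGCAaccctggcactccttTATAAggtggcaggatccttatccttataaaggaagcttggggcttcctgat
Cyp2d40: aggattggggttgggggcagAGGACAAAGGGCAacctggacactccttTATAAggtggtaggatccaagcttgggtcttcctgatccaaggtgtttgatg
Cyp2d26: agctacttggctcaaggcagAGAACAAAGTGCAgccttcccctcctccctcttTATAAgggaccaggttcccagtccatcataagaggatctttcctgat

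The DR1 letters AGGNCANAGGNCA, with N for any base and both strands searched, were present in 3 of the 5 member promoters, those of *Cyp2d9*, *Cyp2d10* and *Cyp2d40*. Among all 32851 promoter windows of 300 bases, 125 (0.381%) held these letters. In *Cyp2d9* the element ran from -54 to -42 relative to the annotated start site, in *Cyp2d10* from -57 to -45, and in *Cyp2d40* from -117 to -105, where a further match on the other strand lay from 32 to 44. The looser letters AGNNCANAGNNCA, which include every match of the stricter ones, were found in 5 of 5 member promoters and in 913 of all promoters (2.78%). The positions they free are those where *Cyp2d11* and *Cyp2d26* depart from the stricter letters, so 5 of 5 is a description only. From the first base of the DR1-like element to TATAA there were 28 bases in *Cyp2d9*, *Cyp2d10*, *Cyp2d11* and *Cyp2d40* and 33 bases in *Cyp2d26*. TATAA itself, which overlaps its own reverse match in these genes, was present in 5 of 5 member promoters and 8171 of all (24.9%). The STAT-type letters TTCNNNGAA, examined because growth hormone acts through STAT5B, were found in 0 of 5 member promoters and 2726 of all (8.3%), which says only that these letters are missing from these windows. Over their aligned bases the promoters of *Cyp2d9* and *Cyp2d11* were 94.0% identical, those of *Cyp2d9* and *Cyp2d10* 84.8%, and those of *Cyp2d9* and *Cyp2d26* 65.3%, so the matches are not independent of each other.

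In the vehicle group, levels per kilobase of transcript were high for *Cyp2d9*, *Cyp2d26* and *Cyp2d10* and far lower for the other members. *Cyp2d9* stood at 447 ± 38.5 CPM per kb (SD, n = 4 here and for each group value that follows), *Cyp2d26* at 378 ± 39.4 and *Cyp2d10* at 329.8 ± 25.6. *Cyp2d22*, which is often compared with human *CYP2D6*, was at 51.4 ± 3.73 CPM per kb and *Cyp2d40* at 33.3 ± 4.41, while *Cyp2d11* and *Cyp2d12* were near 0. The ranges of *Cyp2d9* (398 to 488 CPM per kb) and *Cyp2d26* (324 to 417) overlapped across vehicle mice, as did those of *Cyp2d26* and *Cyp2d10* (296 to 356), although the order was the same within each of the 4 mice. *Cyp2d10* and *Cyp2d22*, and *Cyp2d22* and *Cyp2d40*, did not overlap in either group. In the ISOGK group *Cyp2d9* had 645 ± 135 CPM per kb and lay above *Cyp2d26* (316 ± 24.7) without overlap, whereas *Cyp2d26* exceeded *Cyp2d10* (328 ± 26.1) in only 2 of 4 mice. Lengths were taken from protein-coding transcripts alone, so the pseudogene *Cyp2d13* has no value per kilobase.

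**Figure D1:**
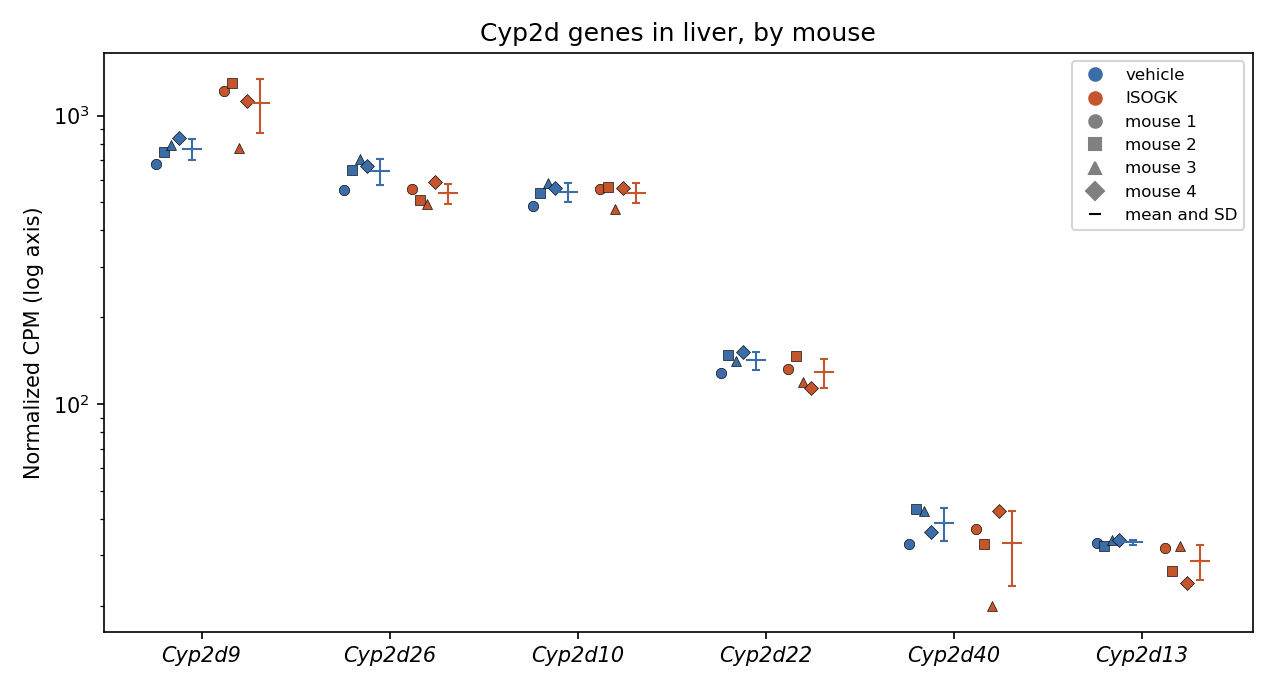
Normalized CPM (log axis) of the 6 Cyp2d genes that passed the filter on low counts, 1 point per mouse with the group mean and SD (n = 4) beside it, vehicle in blue and ISOGK in orange. For *Cyp2d9*, 3 ISOGK mice lie above every vehicle mouse and ISOGK mouse 3 lies at 774 CPM, among the vehicle mice.

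*Cyp2d9* was the member that rose with ISOGK. Its levels in vehicle mice 1 to 4 were 681, 750.2, 793 and 835 CPM, and in ISOGK mice 1 to 4 they were 1216, 1299, 774 and 1125 CPM, from 13570 to 24802 counts per library. ISOGK mice 1, 2 and 4 were above all vehicle mice, and ISOGK mouse 3 fell within the vehicle range. The group means were 765 ± 66.0 CPM with vehicle and 1104 ± 231 CPM with ISOGK, which gave a log2 fold change of 0.53 (SE 0.15, 95% interval 0.21 to 0.85) or 1.44-fold, with an adjusted p of 0.0494 by the quasi-likelihood test of edgeR over 12307 genes. The call lies at the threshold and was kept in 4 of 16 alternative analyses, with log2 fold changes of 0.39 to 0.66 and adjusted p of 0.00518 to 0.135 over all of them. Leaving out ISOGK mouse 3 gave 0.66 (adjusted p = 0.00518), and leaving out any other single mouse, vehicle mouse 4 with its muscle markers included (0.57, adjusted p = 0.0774), ended the call at adjusted p of 0.0774 to 0.135. In bulk liver, a change in the share of the cells that carry an RNA and a change in RNA per cell cannot be told apart.

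*Cyp2d26*, the second most abundant member per kilobase in the vehicle group, pointed the other way without passing the test. Its values were 551, 646, 709 and 668 CPM in vehicle mice and 557, 510, 496 and 587 CPM in ISOGK mice, so that the groups overlapped through vehicle mouse 1. The means were 643 ± 67.0 and 538 ± 42.1 CPM, and the log2 fold change was -0.26 (SE 0.11, 95% interval -0.49 to -0.03, adjusted p = 0.158). With library size alone in place of TMM factors, a scaling under which the log2 fold changes of all tested genes have a median 0.13 lower (-0.13), the value was -0.40 (adjusted p = 0.0437), and *Cyp2d9* then had 0.39 (adjusted p = 0.109).

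*Cyp2d10* had nearly equal group means of 544 ± 42.1 and 540.4 ± 43.1 CPM, with 488, 538, 586 and 562 CPM in vehicle mice and 558, 566, 476 and 562 CPM in ISOGK mice. The lowest values in the 2 groups, those of vehicle mouse 1 and ISOGK mouse 3, were close to each other, and the groups overlapped throughout. The log2 fold change was -0.01 (SE 0.10, adjusted p = 0.971), with a 95% interval of -0.23 to 0.21. The difference between *Cyp2d9* and *Cyp2d10* was not tested.

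*Cyp2d22* had 128, 148, 141 and 152 CPM in vehicle mice and 133, 147, 119.9 and 114 CPM in ISOGK mice, with ISOGK mice 3 and 4 below the vehicle range. Its log2 fold change was -0.14 (SE 0.10, 95% interval -0.37 to 0.08, adjusted p = 0.425). *Cyp2d40* had 32.8, 43.3, 42.8 and 36.1 CPM with vehicle and 37.1, 32.8, 20.1 and 42.9 CPM with ISOGK, where mouse 3 was again the lowest. Its log2 fold change of -0.22 had the widest interval of the family, from -0.67 to 0.22 (SE 0.20, adjusted p = 0.544).

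The pseudogene *Cyp2d13* was nearly constant in the vehicle group, at 33.0, 32.4, 33.9 and 33.9 CPM, and read 31.9, 26.4, 32.2 and 24.1 CPM in ISOGK mice. It was the 1 member whose groups did not overlap, with all ISOGK mice lower, as were 7.36% of all tested genes, while 7.92% did not overlap with all ISOGK mice higher. The gap between the groups was small, and the log2 fold change of -0.22 (SE 0.11, 95% interval -0.45 to 0.01) did not pass the test (adjusted p = 0.231).

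*Cyp2d11* and *Cyp2d12* did not pass the filter on low counts. *Cyp2d11* had 1, 3, 4 and 4 counts in vehicle mice and 3, 1, 1 and 0 in ISOGK mice, and *Cyp2d12* had 7, 3, 3 and 1 against 2, 2, 2 and 1. Both were left out of the edgeR test above, so it gives no comparison of the groups for either gene.

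Of the 8 members, 6 were tested, 1 was called higher and 0 lower at an adjusted p under 0.05 with edgeR. Among all tested genes, 4.11% were called higher and 3.44% lower, or 7.55% in either direction. At an unadjusted p under 0.05 there were 2 of the 6 members, *Cyp2d9* and *Cyp2d26*, which had opposite signs, beside 24.2% of all tested genes, and the DESeq2 Wald test likewise called 1 member. No member passed the additional threshold of an absolute log2 fold change over 1, which 1.63% of all tested genes passed. Of the 6 log2 fold changes, 1 was positive and 5 were negative, with a median of -0.18 against 0.00 over all tested genes.

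**Figure D2:**
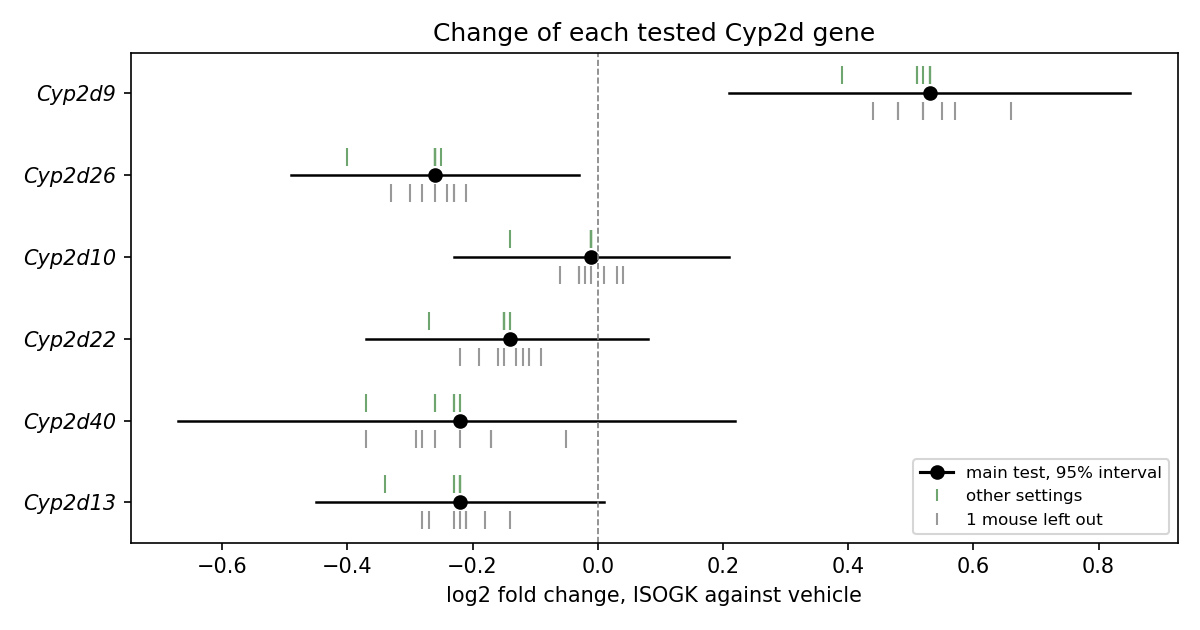
Log2 fold change of each tested Cyp2d gene, ISOGK against vehicle, with the 95% interval of the edgeR test (black), the values under other settings (green ticks) and with 1 mouse left out (grey ticks). *Cyp2d9* stays above 0 throughout, from 0.39 to 0.66, while *Cyp2d10* lies on both sides of 0.

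The summed level of the family moved less than *Cyp2d9* did. The 8 genes together had 1913, 2158, 2306 and 2287 CPM in vehicle mice and 2533, 2582, 1919 and 2456 CPM in ISOGK mice, and 3 of the 4 ISOGK mice lay above all vehicle mice. As a share of all reads counted, without a normalization factor, the family took 0.195% to 0.251% with vehicle and 0.195% to 0.248% with ISOGK. Without *Cyp2d9* the sum was 1233, 1407, 1513 and 1451 CPM in the vehicle group and 1317, 1283, 1145 and 1331 CPM in the ISOGK group.

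*Cyp2d9* held a larger share of the family's counts in every ISOGK mouse than in any vehicle mouse. This share of all Cyp2d counts was 35.6%, 34.8%, 34.4% and 36.5% in vehicle mice and 48.0%, 50.3%, 40.4% and 45.8% in ISOGK mice, means of 35.3% ± 0.948 and 46.1% ± 4.26. ISOGK mouse 3, whose *Cyp2d9* level lay in the vehicle range, was also above the vehicle mice here. Its sum without *Cyp2d9*, 1145 CPM, was below the 1233 to 1513 CPM of the vehicle mice. The share depends on neither library size nor a normalization factor. The *Cyp2d26* share went the other way without overlap, at 28.8% to 30.7% in vehicle mice and 19.8% to 25.9% in ISOGK mice. A share can rise only where others fall, so these shifts are not independent. The shares and the ratios that follow were formed after the levels above were known and are given as descriptions. How often shares or ratios of other genes separate the groups in this way was not examined.

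**Figure D3:**
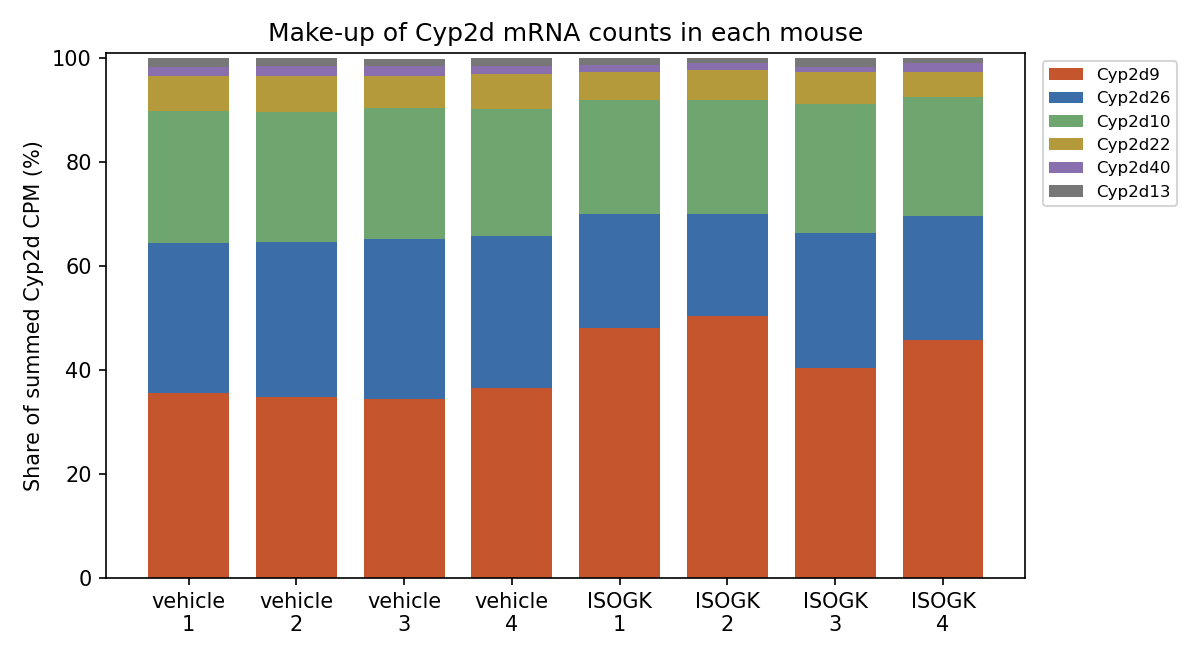
Share of the summed Cyp2d counts (%) that each gene held in each of the 8 mice. The *Cyp2d9* segment spans 34.4% to 36.5% in vehicle mice and 40.4% to 50.3% in ISOGK mice. The *Cyp2d26* segment spans 28.8% to 30.7% and 19.8% to 25.9%. *Cyp2d11* and *Cyp2d12* are too low to be drawn.

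The ratio of *Cyp2d9* to *Cyp2d10* counts within a mouse was 1.4, 1.39, 1.35 and 1.49 with vehicle and 2.18, 2.3, 1.63 and 2.0 with ISOGK. *Cyp2d9* over *Cyp2d26* gave 1.24, 1.16, 1.12 and 1.25 against 2.18, 2.55, 1.56 and 1.92. *Cyp2d9* over *Cyp2d22* gave 5.31, 5.09, 5.62 and 5.49 against 9.15, 8.81, 6.46 and 9.83. In each of these ratios the lowest ISOGK mouse was mouse 3, and it still exceeded the highest vehicle mouse. In ISOGK mouse 3, *Cyp2d9* (774 CPM) lay in the vehicle range, while *Cyp2d10* (476), *Cyp2d26* (496) and *Cyp2d22* (119.9) lay below their vehicle ranges. Its higher ratios thus came with lower denominators. *Cyp2d10* over *Cyp2d26* was tight in the vehicle group, from 0.828 to 0.886, and ran from 0.957 to 1.11 with ISOGK, again without overlap. By contrast, the ratios of *Cyp2d13*, *Cyp2d22* and *Cyp2d40* to *Cyp2d10* overlapped between the groups, with means of 0.0615 and 0.0536 for *Cyp2d13*, 0.262 and 0.239 for *Cyp2d22* and 0.0712 and 0.0607 for *Cyp2d40*.

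**Figure D4:**
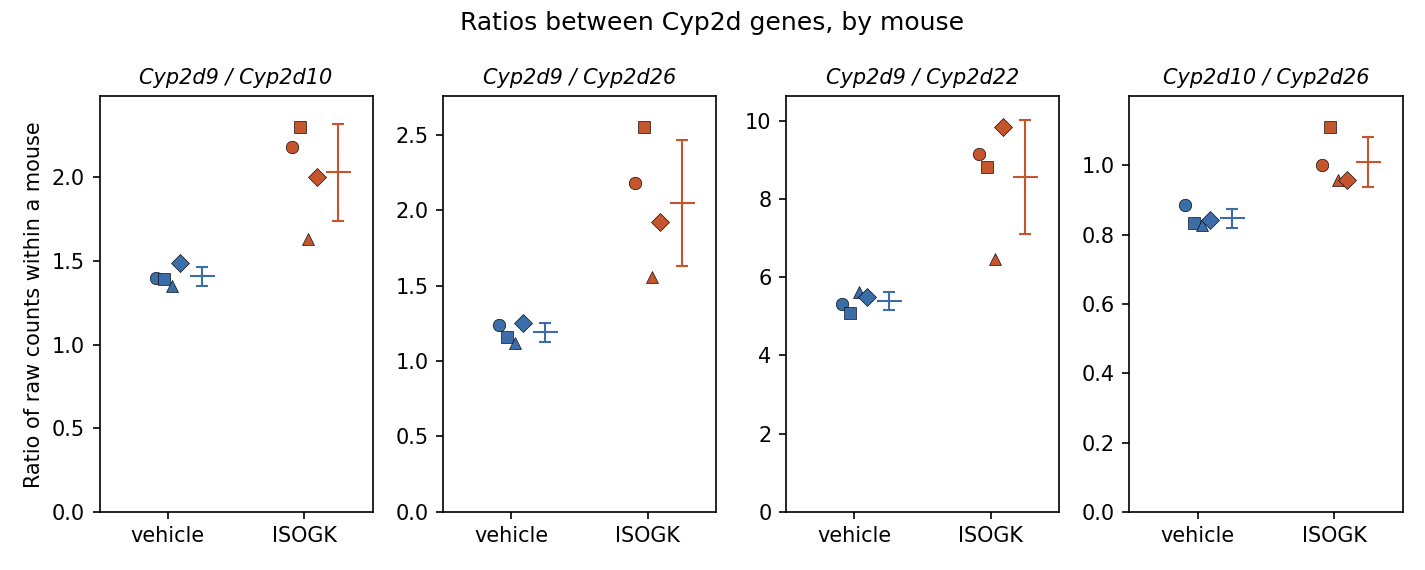
Ratios of raw counts between pairs of Cyp2d genes within each mouse, 1 point per mouse, with the group mean and SD (n = 4). In all 4 panels the ISOGK mice lie above the vehicle mice, for *Cyp2d9* over *Cyp2d26* from 1.56 to 2.55 against 1.12 to 1.25. The ratios of *Cyp2d13*, *Cyp2d22* and *Cyp2d40* to *Cyp2d10*, which overlapped between the groups, are not drawn.

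Since the copies are so alike, the transcripts were compared. Over aligned bases *Cyp2d9* was 93.4% identical to *Cyp2d11*, 91.6% to *Cyp2d10*, 91.4% to *Cyp2d12*, 80.1% to *Cyp2d26* and 76.0% to *Cyp2d22*. Of the 50-base words of each transcript, 40.5% in *Cyp2d10* and 37.2% in *Cyp2d11* also occurred in another gene, against 29.0% in *Cyp2d9*, 24.1% in *Cyp2d40*, 17.9% in *Cyp2d12*, 10.5% in *Cyp2d26* and 6.14% in *Cyp2d22*. *Cyp2d9* shared 9.26% of its words with *Cyp2d10* and 0 with *Cyp2d26*. How reads that match several copies were counted is not given in the sources used here, so the split of counts among *Cyp2d9*, *Cyp2d10*, *Cyp2d11* and *Cyp2d12* is uncertain. *Cyp2d26* and *Cyp2d22* shared the smallest parts of their transcripts. The words of the pseudogene *Cyp2d13* were not examined in this way, so how its counts are affected is not known.

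Within the groups, *Cyp2d9*, *Cyp2d10*, *Cyp2d26* and *Cyp2d40* varied together from mouse to mouse to differing degrees. After each group's mean was subtracted, log2 CPM of *Cyp2d9* and *Cyp2d10* correlated over the 8 mice with a Pearson r of 0.88, *Cyp2d10* and *Cyp2d26* with 0.82, *Cyp2d10* and *Cyp2d40* with 0.80, and *Cyp2d9* and *Cyp2d26* with 0.50. *Cyp2d22* had an r of 0.65 with *Cyp2d9* and 0.52 with *Cyp2d10*, but 0.13 with *Cyp2d26* and 0.15 with *Cyp2d40*. *Cyp2d13* stood apart, with r between -0.59 and 0.09 to the other members. These values share libraries, depth and, for the closest copies, possibly reads, and they are descriptions of 8 mice. ISOGK mouse 3 was the lowest of its group for *Cyp2d9*, *Cyp2d10*, *Cyp2d26* and *Cyp2d40*, as vehicle mouse 1 was of its own. How far the r values rest on these libraries was not tested. Among 6808 genes with a mean of at least 10 CPM, the 5 whose centred values were most like the Cyp2d sum were *Npc2* (r = 0.99), *Mrpl14* (0.98), *Retreg2*, *A430005L14Rik* and *Naa10* (0.96 each), and the 3 most like *Cyp2d9* were *Idh3g* (0.98), *A430005L14Rik* and *Esd* (0.97 each). None of these 7 genes was called between the groups, with adjusted p of 0.197 or more. They were picked as the highest of 6808 correlations over 8 mice, and the height that chance alone would reach was not tested.

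Genes that flank the cluster within 100 kb were examined in the same fit. *Smdt1*, which encodes a subunit of the mitochondrial calcium uniporter, had a log2 fold change of 0.01 (adjusted p = 0.984), *Ndufa6* of respiratory complex I 0.23 (adjusted p = 0.147) and *Tcf20*, on the far side of the cluster, -0.03 (adjusted p = 0.909), and none of these 3 passed the test. *Septin3*, *Wbp2nl* and *Pheta2* had means under 0.2 CPM in both groups and were not tested.

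CYP2D enzymes work only with haem and a supply of electrons. Of 10 tested genes of P450 electron transfer, 0 were called higher and 1 lower (median -0.12 on the log2 scale, here and for the other lists). The gene that fell was *Cyb5b*, which encodes the cytochrome b5 of the outer mitochondrial membrane, from 263 ± 23.2 to 159 ± 11.7 CPM (log2 fold change -0.73, SE 0.10, adjusted p = 0.00178). *Por*, the oxidoreductase that serves microsomal P450 enzymes, had 528 ± 29.7 and 497 ± 83.7 CPM (adjusted p = 0.699). *Cyb5a*, another cytochrome b5 gene of the list, had 522 ± 29.0 and 571 ± 68.5 CPM (log2 fold change 0.13, adjusted p = 0.501). None of 12 genes of haem synthesis and breakdown was called (median -0.04), and *Alas1*, the rate-limiting step of haem synthesis, varied widely, from 117 to 342 CPM with vehicle and from 252 to 547 CPM with ISOGK (log2 fold change 0.80, SE 0.37, adjusted p = 0.237). *Por*, *Cyb5a* and *Alas1* fall outside the rule for named genes and were chosen after their values were seen.

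Among 18 tested regulators of CYP2D genes and liver transcription factors, 1 was called higher and 0 lower, 5.56% against 7.55% of all tested genes. The median was -0.10. The gene called was *Nr1i3*, which encodes the xenobiotic receptor CAR, at 74.5 ± 6.35 CPM with vehicle and 102 ± 16.7 CPM with ISOGK (log2 fold change 0.45, SE 0.12, adjusted p = 0.0415). *Hnf4a*, whose product binds DR1 elements like those shown above, had 850.4 ± 44.1 and 882 ± 98.3 CPM (0.05, SE 0.10, adjusted p = 0.804), named here for that reason after its value was seen. Of 11 tested genes of growth hormone signalling, 0 were higher and 2 lower, 18.2% against 7.55% of all tested genes (median -0.32). *Ghr*, the growth hormone receptor gene, fell from 222 ± 12.9 to 162 ± 16.3 CPM (-0.45, SE 0.10, adjusted p = 0.018), and *Igfals*, which encodes the acid-labile subunit that carries IGF1 in plasma, from 74.5 ± 15.2 to 47.1 ± 4.57 CPM (-0.66, SE 0.14, adjusted p = 0.0133).

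*Cyp2d9* belongs to the male-biased genes of mouse liver, and the other genes of that kind were called in both directions. Of 24 tested male-biased genes other than the Cyp2d members, 3 were called higher and 2 lower, 20.8% against 7.55% of all tested genes, with a median of 0.31. *Ugt2b38*, a UDP-glucuronosyltransferase gene, rose from 46.7 ± 6.04 to 74.6 ± 9.9 CPM (0.68, adjusted p = 0.00652). The others called higher, named after their values were seen, were *Gstp1* (0.57, adjusted p = 0.0316) and *Nat8f5* (1.49, adjusted p = 0.0314). *Nat8f5* was low, with means of 0.798 CPM in the vehicle group and 2.27 CPM in the ISOGK group. *Sdr9c7*, a short-chain dehydrogenase gene, fell from 46.5 ± 3.9 to 20.8 ± 3.81 CPM (-1.16, adjusted p = 0.000738), and *Keg1* fell from 114 ± 14.8 to 31.8 ± 13.4 CPM (-1.84, adjusted p = 0.00974). Of 18 tested female-biased genes, 3 were higher and 3 lower, 33.3% against 7.55% of all tested genes (median -0.05). The 3 higher ones were *Cyp4a14* (2.12, adjusted p = 1.02e-05) and *Cyp4a10* (2.02, adjusted p = 6.1e-05), fatty acid omega-hydroxylase genes that are also known PPARA targets, and *Cyp17a1*, a steroid 17-alpha-hydroxylase gene (1.85, adjusted p = 0.00069). The 3 lower ones, named after their values were seen, were *Cyp2b9* (-4.07, adjusted p = 0.00321), *Atp6v0d2* (-1.49, adjusted p = 0.0361) and *Cyp2a22* (-1.07, adjusted p = 0.0336). Their levels were low. In the same order, vehicle means were 15.3, 9.61 and 2.99 CPM, and ISOGK means were 0.929, 3.43 and 1.42 CPM.

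Other genes of drug metabolism were counted in the same fit. Of 21 tested targets of the xenobiotic sensors AHR, CAR and PXR, 1 was called higher and 6 lower, 33.3% against 7.55% of all tested genes. The list had a median of -0.40. The smallest adjusted p values belonged to *Gstm3*, a glutathione S-transferase gene (-2.28, adjusted p = 0.00178), *Cyp2c29* (-0.68, adjusted p = 0.009) and *Cyp1a2* (-0.48, adjusted p = 0.0101). Of the 68 other cytochrome P450 rows, 59 were tested, and 9 were called higher and 13 lower. These calls made up 37.3% of the tested rows, against 7.55% of all tested genes, and the median was -0.19. The smallest adjusted p values in that list belonged to the rises of *Cyp4a14*, *Cyp4a31* (2.37, adjusted p = 3.52e-05) and *Cyp4a10*. The lists share members, so their percentages of called genes are not independent. Among others, *Cyp2c29* and *Cyp1a2* also count as other P450 rows, as do *Cyp4a14*, *Cyp4a10*, *Cyp17a1*, *Cyp2b9* and *Cyp2a22* of the female-biased list. The Cyp2d median of -0.18 was close to that of the other P450 rows, and whether the family differs from them was not tested.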

How the data were processed

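Liver mRNA of 4 vehicle-treated and 4 ISOGK-treated mice was measured by RNA sequencing. The deposited table holds raw read counts per gene symbol, which the authors obtained by aligning single-end reads with HISAT2 to the mouse genome (build mm10 per the labels) and counting with StringTie. The Ensembl release, the use of strand and the treatment of reads that match several genes are not given in the sources used here. Groups and replicate numbers came from the sample titles, and the columns named DMSO were taken as the vehicle group. Nothing says that same-numbered mice are related. Each p-value weighs the difference between the groups against the spread between mice within them.

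Counts were filtered with filterByExpr (minimum count 10, minimum total 15), which left 12307 of 16540 genes, scaled by TMM factors of 0.8831 to 1.089, and tested with the robust quasi-likelihood test of edgeR 4.0.16 in R 4.3.3 with group as the sole term. p-values were adjusted over all tested genes by the Benjamini-Hochberg method, and a call required an adjusted p under 0.05. The common biological coefficient of variation was 0.164. CPM used TMM factors, and log2 CPM a prior count of 2. Totals of 17457106 to 24461854 counts per mouse set the counting precision. Alternatives were edgeR with library size alone or with size factors of DESeq2, limma-voom (limma 3.58.1), the DESeq2 1.42.0 Wald test, no filter beyond 1 count, at least 10 counts in every library, a block for the replicate number, no robust option, and each mouse left out in turn.

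Transcripts were taken from GENCODE M21 and promoters and coordinates from RefSeq, both on GRCm38; 5 of 8 members had a promoter in the table. Other P450 rows were those whose symbol is Cyp followed by a digit. Named genes were all members, genes within 100 kb of the cluster, up to 3 called genes per list by lowest adjusted p, and the 5 genes most like the Cyp2d sum and 3 most like each called member. One gene named by this rule is not reported here. The members and lists were chosen with earlier results of these data known.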

Additional observations from a re-analysis of the deposited data

Results flagged for a closer look

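Among 42 groups of 4 values examined, 2 held a mouse whose distance to its nearest neighbour took up more of the group's range than Dixon's 95% critical value for 4 samples, where chance gives about 2.1. The level of *Cyp2d10* in ISOGK mouse 3 was 476 CPM, against 558 to 566 CPM in the other ISOGK mice (0.911 of the range); leaving it out moved the log2 fold change of *Cyp2d10* from -0.01 to 0.04. The number of genes with at least 1 count in vehicle mouse 4 was 15369, against 14997 to 15042 in the other vehicle mice (0.879 of the range), and this library also held 1562 counts of skeletal muscle markers. No explanation was tested for either value.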

How the results depend on the processing

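The call of *Cyp2d9* as higher was kept with the DESeq2 Wald test (adjusted p = 0.0108), without a filter (0.0435), with at least 10 counts in every library (0.0482) and without ISOGK mouse 3 (0.00518). It was lost with DESeq2 size factors (0.53, adjusted p = 0.0502), library size alone (0.39, adjusted p = 0.109), limma-voom (0.51, adjusted p = 0.0684) and without the robust option (0.53, adjusted p = 0.0584), each leaving 0 members called higher; with library size alone 1 member, *Cyp2d26*, was called lower. With 1 mouse left out, 0 to 1 members were called higher and 0 lower, and the log2 fold change of *Cyp2d9* ran from 0.44 to 0.66. The sign of *Cyp2d10* turned without vehicle mouse 3 (0.03), vehicle mouse 4 (0.01) or ISOGK mouse 3 (0.04), with adjusted p of 0.819 or more, and ran from -0.06 to 0.04 over the mice left out. *Cyp2d13*, *Cyp2d22* and *Cyp2d40* kept their sign and were not called in any of 16 alternatives. The causes were not tested.

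Over all genes, 929 calls (506 higher, 423 lower) became 1435 with the DESeq2 Wald test (765 and 670). Library size alone gave 1066 calls, 262 higher and 804 lower. Leaving out 1 mouse gave 379 (without vehicle mouse 2) to 1235 calls (without ISOGK mouse 3), 219 to 712 higher and 160 to 523 lower, and 19 to 37 calls among the listed genes against 34.

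With the replicate number as a block, 0 members were called, 0 higher, *Cyp2d9* had 0.51 (adjusted p = 0.0769) and 827 genes were called, 688 of them shared with the fit without the block. Same-numbered mice did not deviate together (correlations of 0.013, -0.0144, 0.0754 and 0.0849), 2 of 8 libraries correlated best with their own number, and the samples share only a number.

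With 4 mice per group, the 95% intervals of *Cyp2d10*, *Cyp2d13*, *Cyp2d22* and *Cyp2d40* include 0. The counts cannot separate reads common to close copies, and *Cyp2d11* and *Cyp2d12* were too low to test.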
